A study of Sus scrofa with 30 samples.

Results

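The sequences described here are the forms of miR-101, miR-199a, miR-199b and miR-214 in porcine endometrium. They were taken from the study's list of annotated small RNA sequences as every entry whose name has the root mir-101, mir-199a, mir-199b or mir-214, and reads were counted by exact match. This gave 35 of the 873 annotated sequences: 12 forms of miR-101, 8 of the 3p arm of miR-199, 6 each of miR-199a-5p and miR-199b-5p, and 3 of miR-214. The authors kept sequences for annotation on their read number in at least 1 group of these same animals, so forms rare in every group are not in the list. The endometrium of 30 crossbred gilts (Hampshire x Duroc, 7 to 8 months old, 1 commercial herd) gave 1 small RNA library per animal. Cyclic animals were sampled on days (D) 12, 16 and 20 of the estrous cycle (CD12, n = 4; CD16, n = 5; CD20, n = 5) and inseminated animals on the same days of pregnancy (PD12, n = 5; PD16, n = 5; PD20, n = 6). On D12 and D16 pregnancy was checked by flushing conceptuses from the uterus. On D20 of pregnancy the endometrium was taken at implantation sites, once the embryos and trophoblast had been removed. The study names this site for PD20 only, so in comparisons with PD20 the site sampled and the group cannot be told apart. A library held 2029729 to 6402731 reads (median 3111079), and the members took 0.883% of the reads of the annotated sequences, between 0.491% and 1.56% in a library. The tissue is bulk endometrium, in which fewer cells of a type and less of an RNA per cell cannot be told apart.

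MicroRNAs (miRNAs) pair with target mRNAs mainly through their seed, bases 2 to 8 from the 5′ end, and lower the stability or translation of the target. A form that starts 1 base earlier or later (an isomiR with a shifted 5′ end) has another seed. miR-101 and miR-199a-3p are known in the mouse uterus as repressors of PTGS2, the cyclooxygenase that makes the precursor of the prostaglandins, which govern luteolysis and implantation in the pig. The miR-199 and miR-214 genes are best known from mesenchymal cells, and miR-199a and miR-214 can be made from a common transcript antisense to a dynamin gene. In the RefSeq gene table for Sscrofa11.1, MIR199A-1 and MIR214 are neighbours within DNM3, MIR199A-2 lies within DNM2 and MIR199B within DNM1, while MIR101-1 lies within RCL1 and MIR101-2 within JAK1.

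The sequences that carry the results are shown with the seed in capitals and T for U. Each name gives the canonical pig miRNA and the bases added (+) or missing (−) at an end. The first 3 share the canonical seed of miR-101, the next 2 carry 1 extra base at the 5′ end and so a seed shifted by 1 base.
miR-101 canonical: tACAGTACtgtgataactgaa
miR-101 3′ +1: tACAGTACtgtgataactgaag
miR-101 3′ +2: tACAGTACtgtgataactgaaga
miR-101 5′ +1, 3′ −1: gTACAGTActgtgataactga
miR-101 5′ +1: gTACAGTActgtgataactgaa

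The 3p arm of miR-199 also came with more than one start. Pig miR-199b-3p is annotated with a start at U, and pig miR-199a-3p starts 1 base later and ends 1 base later, so the seeds of the annotated a and b forms differ by 1 base. The names of the other 3p isomiRs list all 3 pig hairpins, miR-199a-1, miR-199a-2 and miR-199b. The study's supplement places both canonical 3p sequences in the hairpins of miR-199a-2 and miR-199b alike. Reads of the 3p arm, canonical forms included, therefore cannot be divided between these genes.
miR-199b-3p canonical: tACAGTAGtctgcacattggtt
miR-199b-3p 5′ −1: aCAGTAGTctgcacattggtt
miR-199a-3p canonical: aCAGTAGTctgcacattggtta

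On the 5p arm miR-199a and miR-199b share their seed and differ by C10T and C17T (miR-199a base, position from the 5′ end, miR-199b base), so their reads can be told apart. miR-214 carries a seed of its own.
miR-199a-5p canonical: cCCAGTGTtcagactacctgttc
miR-199b-5p canonical: cCCAGTGTttagactatctgtt
miR-199b-5p 3′ +1: cCCAGTGTttagactatctgttc
miR-214 canonical: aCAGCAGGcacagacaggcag
miR-214 3′ +1: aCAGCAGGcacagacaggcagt

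For 5 of 6 canonical sequences an isomiR was the more abundant form in 30 of 30 libraries. Normalized reads are given as CPM, reads scaled to a common total of the annotated sequences after TMM scaling. miR-101 3′ +1 had 1953 CPM on average over all libraries and the canonical form 389, and within a library the ratio of their reads was 4.89 (geometric mean, range 3.12 to 6.88). miR-199b-5p 3′ +1 had 2050.3 CPM and its canonical form 238, a ratio of 7.99 (1.78 to 13.8). For miR-199b-3p, the form starting 1 base later (318 CPM) exceeded the form with the annotated start (150.2 CPM) 2.16-fold (1.54 to 3.31), and it exceeded canonical miR-199a-3p, which is 1 base longer at the 3′ end (151 CPM), 2.17-fold (1.42 to 3.22). miR-214 3′ +1 exceeded canonical miR-214 5.87-fold (3 to 51), but at 22.3 and 4.14 CPM both were scarce, and miR-214 held 0.408% of the reads of the members. Only miR-199a-5p had its canonical form on top, with 67.0% of the reads of its 5 pig forms. All these values compare exact sequences, and another 360 deposited sequences that begin with the same 17 bases as a member held 237148 reads, 25.8% of the reads of both together (18.3% to 35.5% in a library). Ligation and amplification differ between sequences, so a ratio between forms also holds what each end does in library preparation, which was not tested.

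The forms of miR-101 thus carried different seeds. Forms with the annotated start (U-start, 6 sequences) held 64.5% of the miR-101 reads over all libraries, and forms with 1 extra G in front (G-start, 5 sequences) held 35.5%, between 19.6% and 53.2% in a library. In the 3p arm of miR-199, 65.6% of reads began 1 base after the annotated start of miR-199b-3p, 24.4% at that start and 9.93% a further base later. For miR-214, 27.4% of reads carried 1 extra base. In the 5p arms the start hardly varied: 99.5% of miR-199a-5p and 99.0% of miR-199b-5p reads had the annotated start.

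A few libraries stood apart. CD20 replicate 1 was least like the others, with a mean r of 0.846 to the 29 other libraries (log2 CPM of the annotated sequences) against 0.897 for the next, CD20 replicate 2. These also held the lowest sums of miR-199b-5p in their group. PD20 replicate 1 held 636004 CPM of the stroma and smooth muscle miRNAs miR-143 and miR-145 and 40186 CPM of miRNAs of striated muscle, against medians of 112963 and 3853 in PD20. This library had the lowest TMM factor (0.644), which raises all its CPM, so these values are not shares of its reads. PD20 replicate 4 was low in U-start miR-101 and high in the 3p arm of miR-199. No 2 libraries held identical counts.

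Differences between groups were tested in edgeR by its quasi-likelihood F-test on all 873 sequences, and p-values were adjusted over all of them by the method of Benjamini and Hochberg. To be called, a sequence needed an adjusted p under 0.05 as well as a log2 fold change (log2FC) above 1 or below −1. For the days, 1 joint test set D16 and D20 against D12. Single contrasts were used for D20 vs. D16 and, at every time point, for pregnancy vs. cycle (P vs. C). Comparisons between days of a status share animals, as do P vs. C and the comparisons between days, so their values stand side by side and are not independent.

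Within pregnancy, 1 of the 35 members was called: miR-101 3′ +2 rose from PD12 to PD20. Its normalized reads were 138, 155, 200.02, 81.7 and 139 CPM in the 5 animals of PD12. In PD16 they were 88.7, 179, 123, 219.7 and 171 CPM, and in PD20 the lowest was 149.99, the median 395 and the highest 567. Thus 5 of 6 PD20 animals lay above all of PD12, and PD20 replicate 4 lay within it, so the groups overlap. The mean rose from 143 ± 42.4 CPM (SD, n = 5) to 382 ± 141 (n = 6), a log2FC of 1.44 (SE 0.34, F-test adjusted p 0.0448). Over all sequences 0.802% were called on PD20 vs. PD12 (0.687% higher). The likelihood ratio test of edgeR called 1 member and 5.27% of all, and DESeq2 called 2 members and 5.32% of all. Compared with PD16 the log2FC was 1.27 (SE 0.34, adjusted p 0.114), which did not pass. The joint adjusted p of 0.0448 is close to the threshold: without PD20 replicate 1 the log2FC was 1.40 and the adjusted p 0.0605, and the call was lost in 9 of 11 fits that left out 1 library, with log2FC from 1.27 to 1.62 and adjusted p from 0.0112 to 0.111. It held only without PD12 replicate 3 or without PD20 replicate 4.

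In the cycle the same form was not called. It had 111, 203, 407 and 185 CPM in CD12. In CD16 it had 176, 198, 76.9, 47.7 and 59.4 CPM, and in CD20 286, 204, 66.1, 234 and 319. The groups of the cycle overlap one another, and CD20 reached lower and less high than PD20. Between PD20 and CD20 the log2FC was 0.81 (SE 0.42, adjusted p 0.204). The test of whether P vs. C differed between D20 and D12 gave a log2FC of 1.45 with an adjusted p of 0.257, so a difference in course between pregnancy and the cycle was not called.

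**Figure D1:**
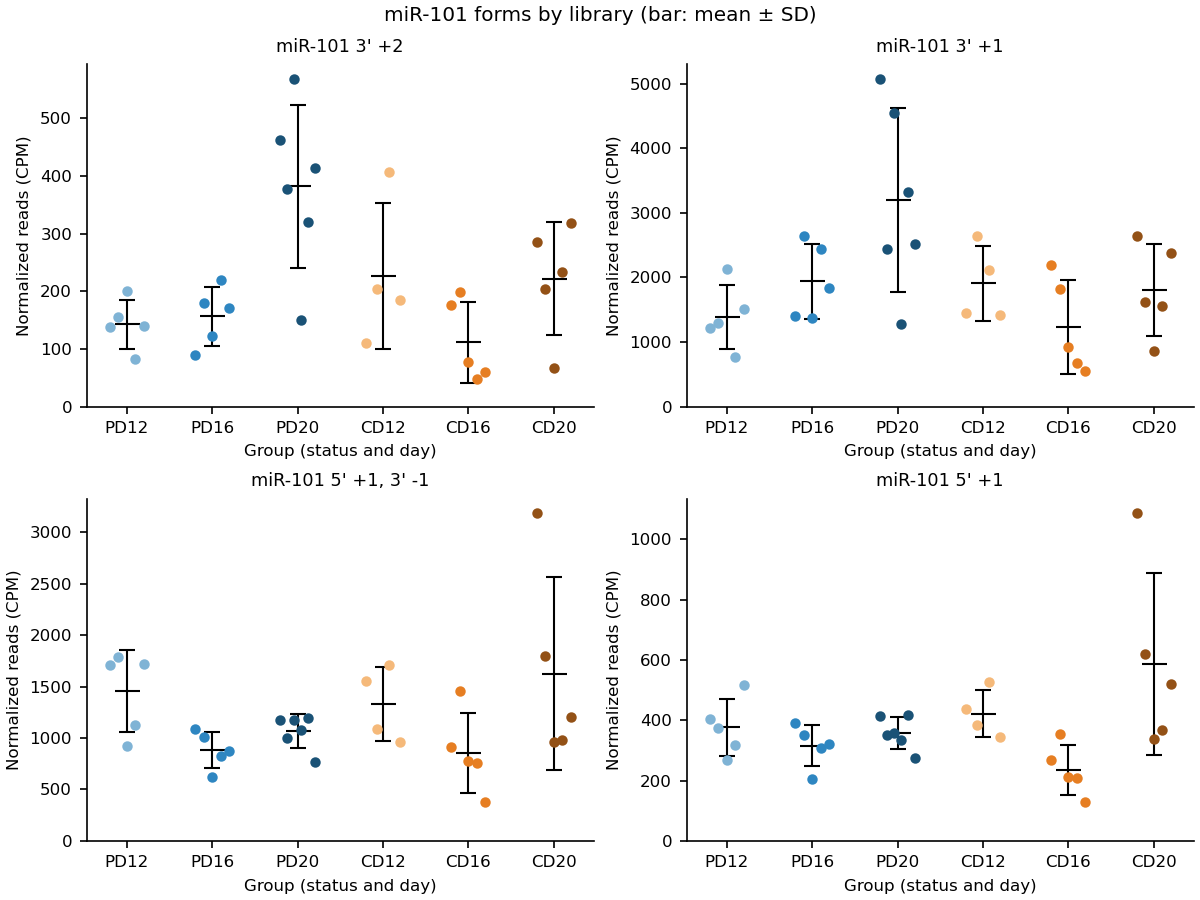
Normalized reads (CPM) of miR-101 3′ +2, 3′ +1, 5′ +1, 3′ −1 and 5′ +1 (1 panel each) in each library, by group, with 1 point per animal and bars for the mean ± SD. The 3′ extended forms lie highest in PD20, up to 567 CPM for miR-101 3′ +2, while PD20 replicate 4 lies at 149.99.

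The most abundant member of the family, miR-101 3′ +1, had the canonical seed as well. It had 1222, 1298, 2122, 774 and 1508 CPM in PD12, and in PD20 a lowest of 1276, a median of 2920.4 and a highest of 5069.8. The mean was 1385 ± 491 in PD12 and 3194 ± 1419.7 in PD20 (log2FC 1.24, SE 0.37, adjusted p 0.142), so this larger pool did not pass the test. Its PD16 values were 1399, 2647, 1378, 2437 and 1836 CPM. In the cycle, animals had 1450.3, 2638, 2121 and 1418 CPM on D12, and 2190.2, 1819, 918, 681 and 551 on D16. On D20 of the cycle the values were 2635, 1613, 859, 1553 and 2371 CPM, all within the range of PD20 or below it. The log2FC of PD20 vs. CD20 was 0.86 (SE 0.41, adjusted p 0.179), and it was 0.70, 1.001 and 1.04 without PD20 replicate 1, PD20 replicate 4 and CD20 replicate 1 (adjusted p 0.303, 0.0838 and 0.201).

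The log2FC of PD20 vs. PD12 is given here for each of the 12 forms of miR-101. In U-start forms it was 0.71 for 3′ +3, 1.44 for 3′ +2, 1.24 for 3′ +1, 0.59 for the canonical form, −0.15 for 3′ −1 and 0.63 for 3′ −3, the last being scarce (4.36 CPM in PD12). In G-start forms it was 0.62 for 3′ +1, −0.04 for the form ending as the canonical one, −0.42 for 3′ −1, −0.93 for 3′ −2 and −0.17 for 3′ −3. The scarce form that starts 1 base late (5′ −1, 3′ +1) had 1.31 (SE 0.59, adjusted p 0.2004). Apart from 3′ +2 none was called. The names assign 3′ +2 and 3′ +3 to the miR-101-1 hairpin only, and the other isomiRs to both miR-101-1 and miR-101-2. Of the log2FC values 5 of 6 were positive among U-start forms and 1 of 5 among G-start forms, beside 49.3% of all sequences, and with 1 library left out the first count was 5 of 6 in 11 of 11 fits, while the second was 2 of 5 without PD12 replicate 5.

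The summed U-start forms had 2578 ± 734 CPM in PD12, 2896 ± 856 in PD16 and 4713 ± 1893 in PD20. The order of the groups was PD20, CD12 (3308 ± 966), CD20 (3116 ± 1242), PD16, PD12 and CD16 (2010.3 ± 1151), and the ranges of neighbours in this order overlap. The G-start forms had 2007 ± 515 CPM in PD12, 1306 ± 290.1 in PD16 and 1573 ± 228 in PD20, and were highest in CD20 (2421 ± 1330.2). That mean rests in part on CD20 replicate 1, which held 4636 CPM, the highest sum of G-start forms in the group.

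The ratio of G-start to U-start reads, taken within each library and so free of scaling, was 0.958, 0.863, 0.381, 1.14 and 0.836 in PD12. In PD20 its lowest value was 0.245, its median 0.335 and its highest 0.770. In CD20 it was 0.989, 0.967, 1.01, 0.541 and 0.468. PD20 lay low apart from replicate 4, and its range overlaps with both other groups. The geometric mean was 0.786 in PD12 and 0.357 in PD20, a log2 difference of −1.14 (two-sided exact permutation p 0.0152, adjusted p 0.429 over 36 tests of 4 ratios in 9 comparisons). Against CD20, with 0.755, the log2 difference was −1.08 (exact permutation p 0.0238, adjusted p 0.429). Neither passed the correction, and the smallest p that 6 against 5 animals allow is 0.00216. Without CD20 replicate 1 the difference from CD20 was −0.98.

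**Figure D2:**
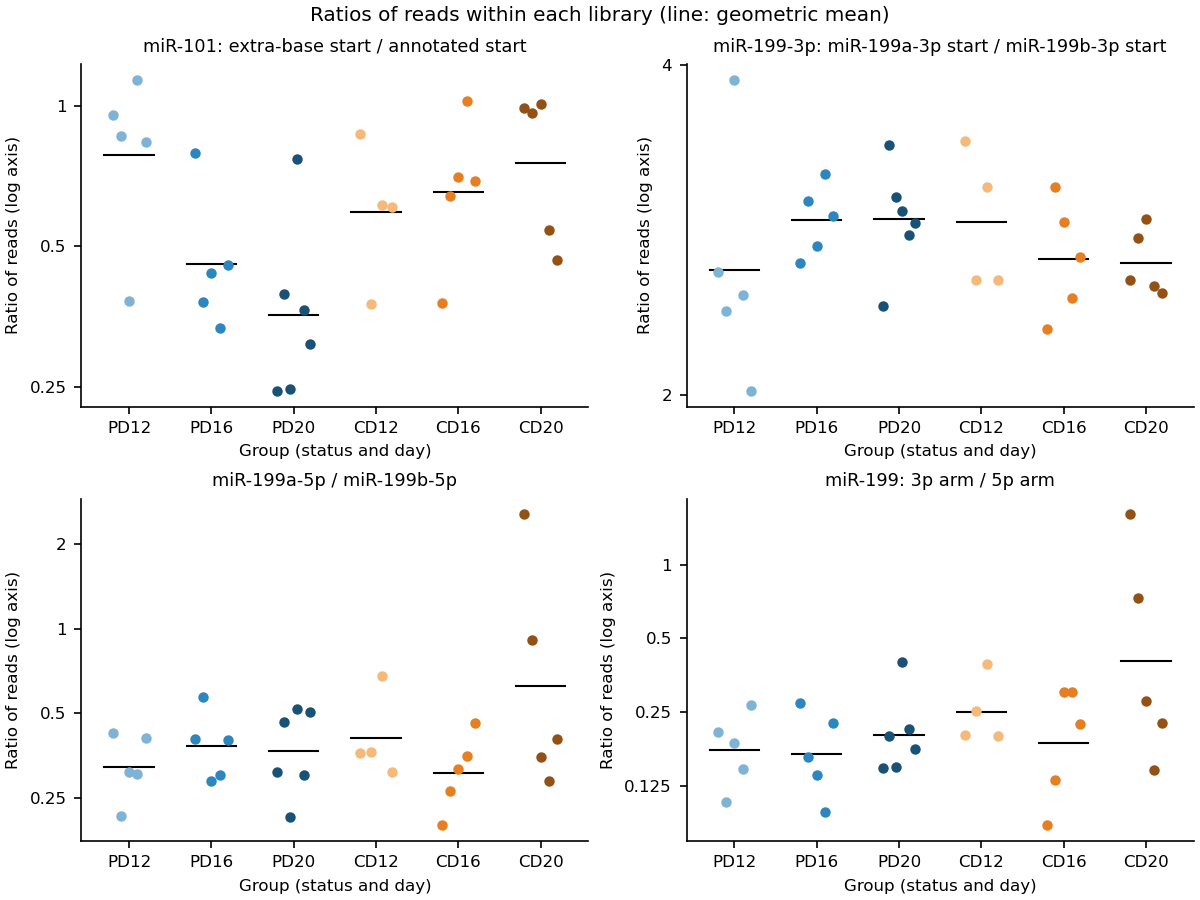
Ratios of reads within each library (log axes), by group, with 1 point per animal and a line at the geometric mean of the group: G-start to U-start forms of miR-101, forms with the start of miR-199a-3p to those with the start of miR-199b-3p, miR-199a-5p to miR-199b-5p, and 3p to 5p arm of miR-199. The miR-101 ratio has its lowest geometric mean in PD20 (0.357), and CD20 replicate 1 stands out with a miR-199a-5p to miR-199b-5p ratio of 2.55 and a 3p to 5p ratio of 1.61.

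The most abundant G-start form, miR-101 5′ +1, 3′ −1, had 1713, 1789, 924, 1128 and 1722 CPM in PD12. In PD16 it had 1087, 1007, 624, 822 and 875, and in PD20 a lowest of 766, a median of 1124 and a highest of 1197. PD16 and PD20 lay at or below the middle of PD12, with overlap (PD16 vs. PD12 log2FC −0.64, SE 0.28; PD20 vs. PD12 −0.42, SE 0.26; joint adjusted p 0.321). In the cycle the range was 963 to 1712 CPM in CD12, 380.1 to 1457 in CD16 and 957 to 3189 in CD20, where replicate 1 held the highest value. A shorter and scarce G-start form, miR-101 5′ +1, 3′ −2, had the lowest log2FC of the members on PD16 vs. PD12 (−1.11, SE 0.45, adjusted p 0.245, with 12.7 ± 4.78 vs. 29.03 ± 16.5 CPM).

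The form miR-101 5′ +1 had the smallest p of the members on CD20 vs. CD16. It had 268, 354, 210.4, 210.0 and 128 CPM in CD16 and 1088, 620.4, 339, 366 and 521 in CD20. Only CD20 replicate 3 lay within the range of CD16. The mean was 234 ± 83.6 and 587 ± 303 CPM (log2FC 1.24, SE 0.39, adjusted p 0.0969), and without CD20 replicate 1 the log2FC was 0.93 with an adjusted p of 0.268. In pregnancy the means of this form were 376 ± 93.8, 316 ± 69.2 and 358 ± 53.9 CPM on D12, D16 and D20. The interaction of status with D20 vs. D16 gave −1.14 (adjusted p 0.149).

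On P vs. C, all 8 forms of the 3p arm of miR-199 lay at an unadjusted p under 0.05 on D20, as did 28.5% of all sequences, though none was called. Canonical miR-199b-3p had a lowest of 68.1, a median of 96.5 and a highest of 147 CPM in PD20. In CD20 it had 363, 272, 211, 126 and 226 CPM. In 5 of 6 PD20 animals it lay below all of CD20, and the overlap came from PD20 replicate 4 (147) and CD20 replicate 4 (126). The mean was 103 ± 27.03 CPM (n = 6) and 239.6 ± 86.8 (n = 5), a log2FC of −1.20 (SE 0.34, F-test adjusted p 0.0599), short of the threshold. The value moved with single libraries: the adjusted p was 0.0295 without PD20 replicate 4, and 0.153 (log2FC −0.99) without CD20 replicate 1.

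The other 3p forms lay the same way on D20. The most abundant, miR-199b-3p 5′ −1, had a lowest of 169, a median of 217 and a highest of 349 CPM in PD20, and 676, 593, 459, 252 and 439 in CD20. Again CD20 replicate 4 lay within the range of PD20 (log2FC −0.99, SE 0.33, adjusted p 0.0747). It was −1.13 without PD20 replicate 4 (adjusted p 0.0455, called) and −0.83 without CD20 replicate 1 (adjusted p 0.191). Canonical miR-199a-3p, the form linked to PTGS2, had a lowest of 75.2, a median of 98.0 and a highest of 172 CPM in PD20. In CD20 it had 416, 312, 259, 108 and 194 CPM, with a log2FC of −1.16 (SE 0.38, adjusted p 0.0665). It was called without PD20 replicate 4 (−1.31, adjusted p 0.0409), and without CD20 replicate 1 the log2FC was −0.90 (adjusted p 0.191). All 8 forms had a negative log2FC (48.6% of all sequences had a positive one), from −1.51 to −0.74, with unadjusted p under 0.05 and adjusted p from 0.0599 to 0.143, and in all 8 the groups overlap, whereas 4.81% of all sequences did not. These forms come from the same hairpins and were counted in the same libraries, so they are not 8 separate results. Their median log2FC was −1.08, against −0.03 for all 873 sequences, and without CD20 replicate 1 it was −0.86 with 5 of 8 forms at an unadjusted p under 0.05 (20.2% of all). With the replicate number as a block 1 of 8 forms lay under 0.05 (16.3% of all, median −0.99), though these numbers do not pair the animals.

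**Figure D3:**
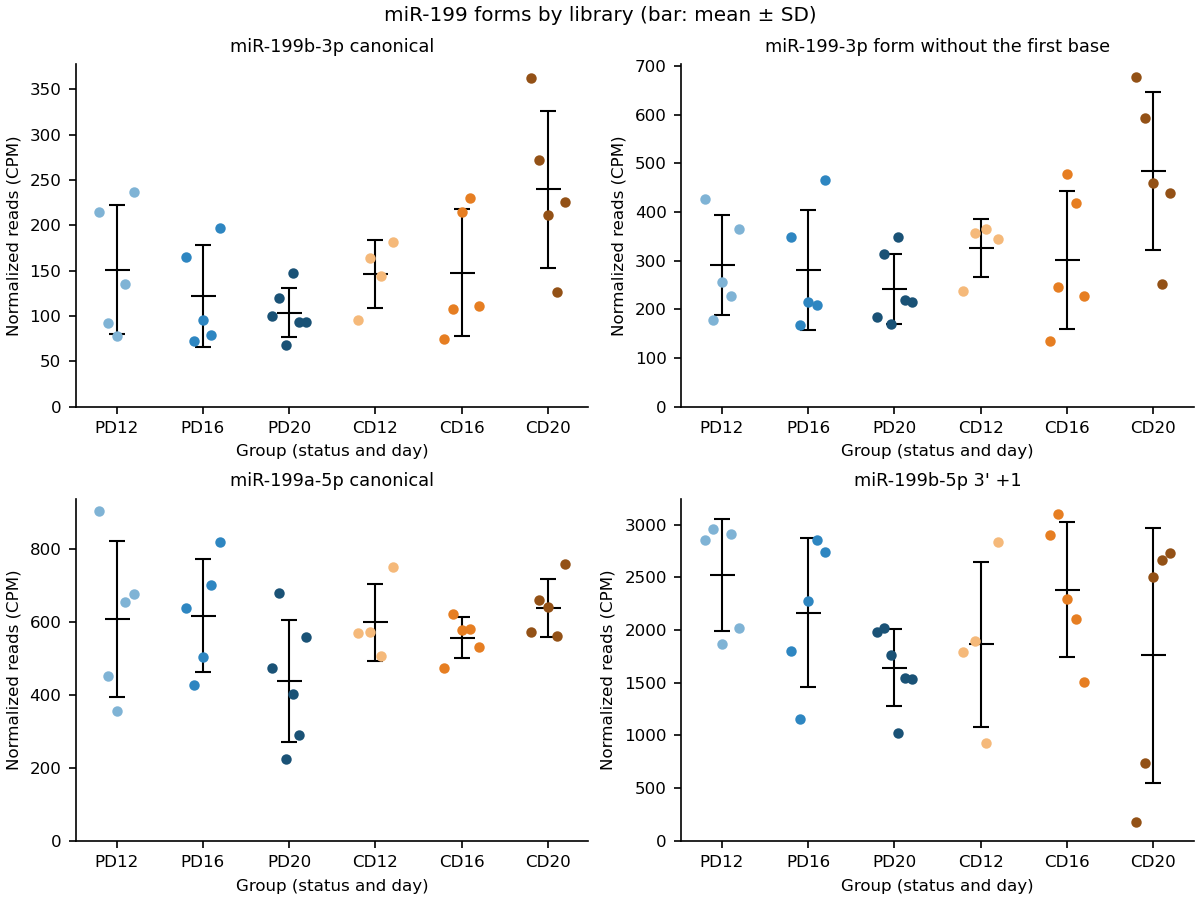
Normalized reads (CPM) of canonical miR-199b-3p, the 3p form without the first base (miR-199b-3p 5′ −1), canonical miR-199a-5p and miR-199b-5p 3′ +1 (1 panel each) in each library, by group, with 1 point per animal and bars for the mean ± SD. Both 3p forms have a lower mean in PD20 than in CD20 (canonical miR-199b-3p 103 vs. 239.6 CPM), and miR-199b-5p 3′ +1 lies at 177 CPM in CD20 replicate 1.

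Of all sequences 13 were called on P vs. C on D20 (1.49%), and 0 of the 35 members by the F-test. The likelihood ratio test called 3 members (8.57%), beside 14.2% of all sequences, and DESeq2 4 (11.4%), beside 15.2%, so both shares lay below those of all sequences. At an unadjusted p under 0.05 there were 11 members (31.4%), 10 of them lower in PD20, beside 28.5% of all sequences. The count was 6 (17.1%, beside 20.96% of all) without CD20 replicate 2, 7 (20.0%, beside 20.2%) without CD20 replicate 1 and 3 (8.57%, beside 16.3%) with the replicate block. Outside the 3p arm these were miR-214 5′ +1, 3′ +1 (−1.01, SE 0.42, adjusted p 0.127) and miR-101 5′ +1, 3′ −2 (−1.03, SE 0.44, adjusted p 0.140), both lower in PD20. Without CD20 replicate 1 the latter was −0.56 with an unadjusted p of 0.181. The scarce form of miR-101 that starts 1 base late (5′ −1, 3′ +1) had a log2FC of 1.30 (SE 0.60, adjusted p 0.166), with 6.50 ± 3.74 CPM in PD20 and 2.69 ± 1.97 in CD20.

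The sum of the 8 forms of the 3p arm had a mean of 545 ± 165 CPM in PD20 and 1146 ± 421 in CD20. Between these came CD12 (716 ± 116), CD16 (697 ± 306), PD12 (689 ± 227) and PD16 (598 ± 270.1), whose ranges all overlap with their neighbours. Relative to CD12, all 8 forms had a positive log2FC on CD20 (0.47 to 1.15, adjusted p 0.158 or more), and the smallest single contrast p was that of miR-199b-3p 3′ −1 (1.01, SE 0.45, adjusted p 0.201). Without CD20 replicate 1 it was 0.65 and without CD20 replicate 2 0.88, and in both cases 0 members lay under 0.05 in the single contrast. From PD12 to PD20 all 8 were negative but small (−0.55 to −0.15). The change in P vs. C between D12 and D20 was −1.26 for canonical miR-199b-3p (adjusted p 0.257).

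Markers of other cell types were read beside these differences, as lists of miRNAs matched by name. The stroma and smooth muscle list (31 sequences of miR-143 and miR-145, led by miR-143-3p with a mean of 61442 CPM) summed to a lowest of 76379, a median of 112963 and a highest of 636004 CPM in PD20. In CD20 it summed to 128321, 109136, 77902, 92884 and 89880.1 CPM. Compared with CD20, 28 of 31 had a positive log2FC (median 0.89) and 0 were called, with 7 at an unadjusted p under 0.05 (28.5% of all sequences were). The fit without PD20 replicate 4 called 3 of 31, and 13.3% of all. On PD20 vs. PD12, where PD12 had 116359, 133890, 92111, 77172 and 105751 CPM, 29 of 31 were positive (median 0.75) and 0 called. In the joint test 11 of 31 lay at an unadjusted p under 0.05 (18.7% of all did). Both medians rest on PD20 replicate 1: without it 16 of 31 were positive vs. CD20 (median 0.11) and 14 of 31 vs. PD12 (median −0.01), and PD20 lay between 76379 and 138143 CPM. The part of this list in the miR-101 and miR-199 values was not tested. For striated muscle, 8 sequences of miR-1, miR-206 and miR-499 were found (miR-133a and miR-133b are not among the names), led by miR-1, with 1416 to 40186 CPM in PD20, 1175 to 8241 in PD12 and 1111 to 8771 in CD20. On PD20 vs. CD20 6 of 8 were positive (median log2FC 1.77, 5 under 0.05), as were 6 of 8 on PD20 vs. PD12 (1.64, 5 under 0.05). Without PD20 replicate 1 the highest value of PD20 was 8098 CPM. The medians were then 0.28 (0 of 8 under 0.05) and 0.09 (2 of 8). With all libraries 0 were called, and without PD20 replicate 4 1 in each comparison (13.3% and 1.15% of all).

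Epithelial miRNAs (34 sequences of the miR-200 family, miR-141 and miR-205, led by miR-200c with a mean of 4616 CPM) summed to a lowest of 7323, a median of 9590.4 and a highest of 14455 CPM in PD20. In CD20 they summed to 4458, 6900.1, 10444, 8789 and 8074 CPM, and 3 sequences of miR-205 were called lower in PD20. The count of epithelial sequences called was 9 of 34 without PD20 replicate 4, a fit that called 13.3% of all. Of the 34 epithelial sequences, 12 were positive on PD20 vs. CD20 (median log2FC −0.36) and 8 on PD20 vs. PD12 (−0.40). Endothelial miR-126 (17 sequences) had 3913 ± 606 CPM in PD20 and 4604 ± 293 in CD20, with 4 of 17 positive. Leukocyte miRNAs (9 sequences of miR-142, miR-150 and miR-155, while miR-223 is not among the names) had 55.8 ± 9.99 CPM in PD12, 110.3 ± 32.8 in PD20 and 122 ± 51.7 in CD20. On PD20 vs. PD12 9 of 9 were positive (median log2FC 0.86), also without PD20 replicate 1 or 4, and on PD20 vs. CD20 3 of 9 (−0.21). Erythrocyte miRNAs (11 sequences of miR-451 and miR-486) had 1035 ± 361 CPM in PD12, 1973 ± 1095 in PD20 and 991 ± 580.2 in CD20. The single sequences did not follow this sum: 4 of 11 were positive on PD20 vs. PD12 (median log2FC −0.12). On PD20 vs. CD20 5 of 11 were positive (median −0.15), and 8 of 11 (median 0.42) without CD20 replicate 1. With all libraries no sequence of the last 3 lists was called by the F-test on PD20 vs. CD20 or PD20 vs. PD12. On PD20 vs. CD20, 2 erythrocyte and 2 endothelial sequences were called without PD20 replicate 4, and 1 endothelial sequence without PD20 replicate 1.

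miR-199b-5p was the most abundant part of miR-199, and its 3′ +1 form had the largest SD of log2 CPM of the 6 leading forms (0.83), though its coefficient of variation on the linear scale (36.7%) was below those of 4 others. It had 2856, 2957, 1869.9, 2914 and 2019.9 CPM in PD12 and 1806, 1153, 2275, 2856 and 2744 in PD16. In PD20 the lowest value was 1026, the median 1653 and the highest 2017. In the cycle it had 1797, 1901, 929 and 2840.1 CPM on D12, 2905, 3103, 2294, 2109.6 and 1504 on D16, and 177, 737, 2500.1, 2664 and 2736 on D20. CD20 replicates 1 and 2 lay below every other library, while the other 3 of CD20 lay above all of PD20. The difference PD20 vs. PD12 was −0.60 (SE 0.28, adjusted p 0.373), and that of PD20 vs. CD20 was −0.07 (SE 0.51, adjusted p 0.934).

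Canonical miR-199b-5p was one of the 2 members whose ranges did not overlap on PD20 vs. PD12. It had 321, 291, 261, 299 and 272 CPM in PD12 and a lowest of 197, a median of 222 and a highest of 248 in PD20 (log2FC −0.36, SE 0.22, adjusted p 0.524). The other was miR-101 5′ +1, 3′ +1, with 6.57, 6.18, 7.85, 8.81 and 8.34 CPM in PD12 and 9.19 to 16.7 in PD20 (log2FC 0.62, SE 0.37, adjusted p 0.508). Of all sequences 3.32% did not overlap in this comparison. On PD12 vs. CD12, where 2.18% of all did not overlap, 2 members lay higher in PD12 without overlap, canonical miR-199b-5p (289 ± 23.5 vs. 191 ± 35.3 CPM, log2FC 0.61, SE 0.31) and miR-199a-5p 3′ −1 (313 ± 76.7 vs. 197 ± 42.2, log2FC 0.68, SE 0.34), each with an adjusted p of 0.678.

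Canonical miR-199a-5p was the steadiest of the leading forms. Its means were 609 ± 214, 618 ± 156 and 438 ± 169 CPM on D12, D16 and D20 of pregnancy and 600.1 ± 106, 558 ± 56.5 and 639.6 ± 80.0 on the same days of the cycle. The lowest value, 225 CPM, and 291, the next, were both from PD20, whose other 4 animals lay between 402 and 679. Compared with CD20 its log2FC in PD20 was −0.53 (SE 0.33, adjusted p 0.289). Over the 30 libraries the SD of its log2 CPM was 0.43, smaller than in 96.0% of the 548 sequences whose mean reached 10 CPM, while that of miR-199b-5p 3′ +1 was 0.83 and the median over these sequences 0.74. Its highest value was 4.02 times its lowest, against 17.5 times for miR-199b-5p 3′ +1.

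Between the arms and genes of miR-199, ratios within a library were as follows. The ratio of miR-199a-5p to miR-199b-5p was 0.389 (geometric mean of 30 libraries), with 27 libraries at or below 0.572 and CD12 replicate 3, CD20 replicate 2 and CD20 replicate 1 at 0.680, 0.914 and 2.55. The ratio of 3p to 5p reads was 0.218, with CD20 replicates 1 and 2 at 1.61 and 0.730. On PD20 vs. CD20 the log2 difference of the 3p to 5p ratio was −1.001 (two-sided exact permutation p 0.143, adjusted p 0.646), and without CD20 replicate 1 it was −0.50. Between forms of the 3p arm with the annotated start of miR-199a-3p and those with that of miR-199b-3p, the ratio lay between 2.02 and 3.88 in all 30 libraries (geometric mean 2.76). Forms that start a further base later were left out of this ratio. None of the 36 tests of ratios passed the adjustment, which a single ratio could not have done: the smallest p the animals allow gives an adjusted p of 0.0779 for 6 against 5 and of 0.286 otherwise when 1 test stands alone.

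miR-214 was low throughout. miR-214 3′ +1 had 32.2, 12.0, 10.6, 16.3 and 25.3 CPM in PD12, 24.6, 22.99, 17.03, 18.2 and 31.9 in PD16 and a lowest of 12.9, a median of 17.6 and a highest of 23.2 in PD20. In the cycle it had 14.2, 24.1, 26.3 and 32.6 CPM on D12, 20.98, 14.05, 16.99, 43.6 and 15.2 on D16 and 31.4, 46.2, 24.7, 11.1 and 27.1 on D20. The groups overlap in every comparison. On PD20 vs. CD20 the log2FC of its 3 forms was −0.63, −1.01 and −0.94 (adjusted p 0.252, 0.127 and 0.229), and on PD20 vs. PD12 it lay between −0.17 and −0.02.

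**Figure D4:**
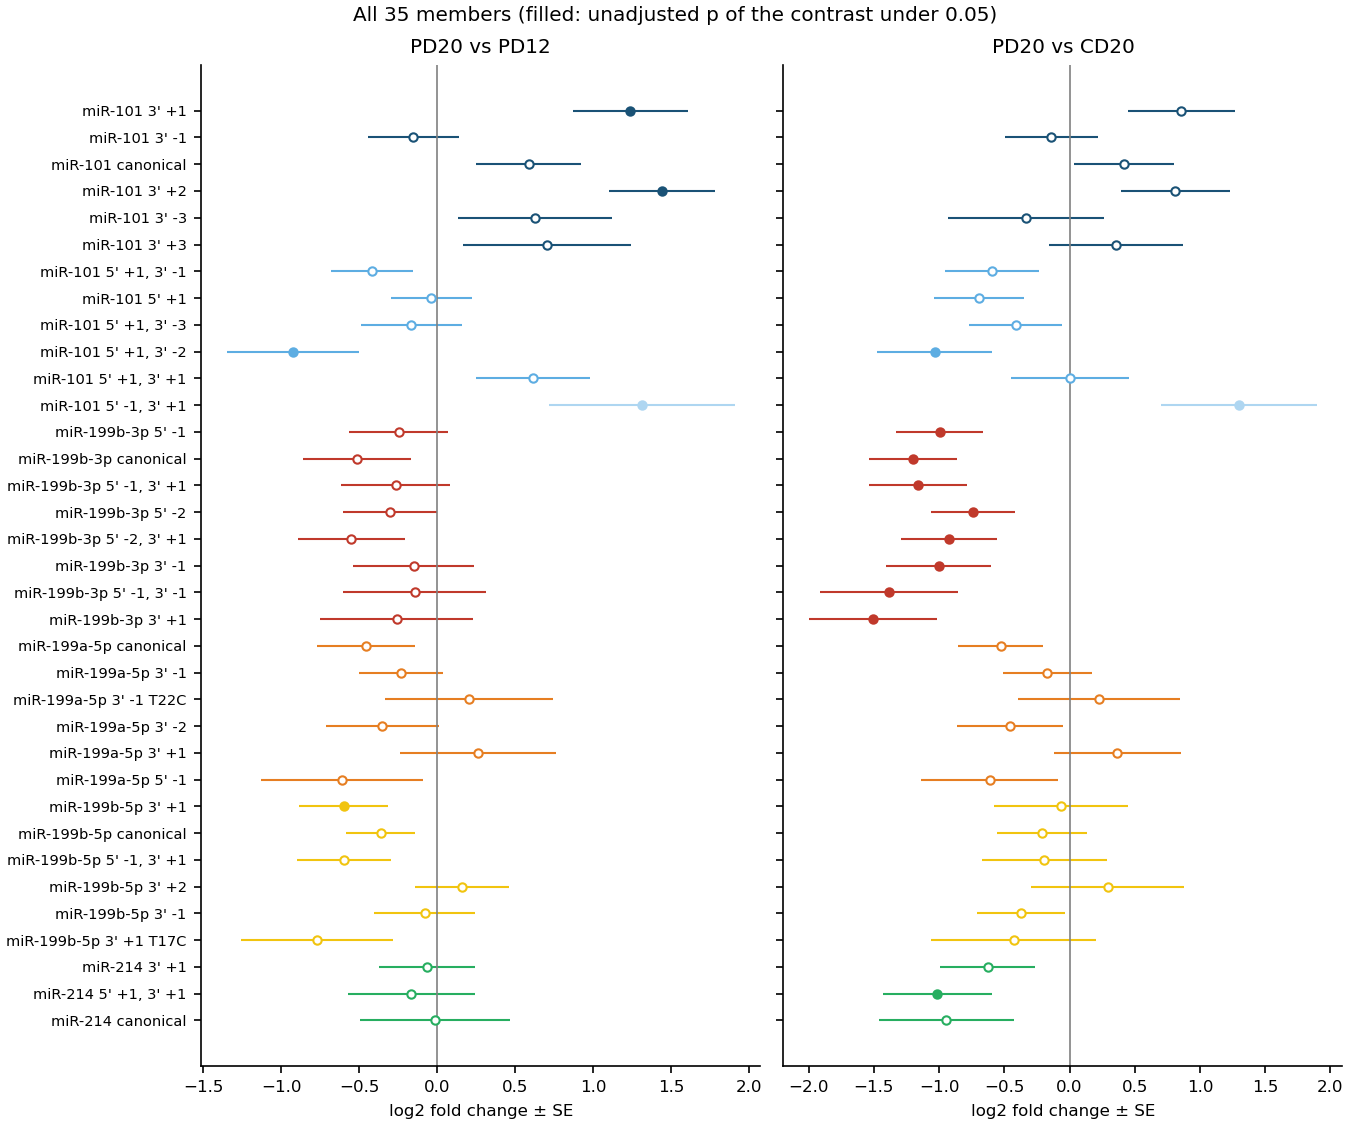
Log2FC ± SE of the 35 members (rows, coloured by form group) on PD20 vs. PD12 and PD20 vs. CD20, where a filled point has an unadjusted p of the contrast under 0.05 and is not thereby called. In these panels only miR-101 3′ +2 on PD20 vs. PD12 (1.44) was called, and the 8 forms of the 3p arm of miR-199 lie below 0 on PD20 vs. CD20, from −1.51 to −0.74. Canonical miR-199a-3p is the row miR-199b-3p 5′ −1, 3′ +1.

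Over the remaining comparisons no member was called by the F-test, and the share of members at an unadjusted p under 0.05 is given beside that of all 873 sequences. On PD16 vs. PD12, where 0.229% of all were called, 4 members (11.4%) had a joint p under 0.05, beside 18.7% of all, and the single contrast gave 2 (5.71% vs. 10.2% of all). The likelihood ratio test and DESeq2 called 0 members there, and 2.75% and 2.89% of all. The same joint test gave 4 members on PD20 vs. PD12, and the single contrast 5 (14.3% vs. 20.6% of all). On PD20 vs. PD16 (0.573% called) 4 members (11.4%) and 14.2% of all lay under 0.05, and the likelihood ratio test and DESeq2 called 1 member each (2.86%), beside 2.41% and 1.74% of all.

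In the cycle 0.115% of all sequences were called on CD16 vs. CD12 and 0.458% on CD20 vs. CD12, with 4 members (11.4%) and 23.9% of all under 0.05 in the joint test. In the single contrasts there were 0 members on CD16 vs. CD12 (17.1% of all) and 3 on CD20 vs. CD12 (8.57% vs. 14.3% of all). The likelihood ratio test and DESeq2 called 0 members, beside 5.27% and 5.88% of all on CD16 vs. CD12 and 5.73% and 6.45% on CD20 vs. CD12. On CD20 vs. CD16 (0.458% called) there were 5 members (14.3%) and 21.2% of all. Without CD20 replicate 1 or 2 there were 2 (5.71%), beside 13.7% and 17.4% of all. Without CD20 replicate 4 there were 10 (28.6%), beside 24.3%, so the share of members moved from below to above that of all. The likelihood ratio test and DESeq2 called 1 member each (2.86%), beside 6.41% and 8.64% of all. Here 29 of 35 members had a positive log2FC, beside 48.8% of all sequences (median 0.55 against −0.03). On P vs. C 0.00% of all were called on D12 and on D16, with 0 members under 0.05 beside 6.07% and 10.9% of all, and the likelihood ratio test and DESeq2 called 0 members, beside 0.115% and 0.00% of all on D12 and 0.573% and 0.805% on D16. In the tests of whether P vs. C differed between days, 0 members were called by all 3 tools. Between D20 and D12, 7 members (20.0%) lay under 0.05, beside 16.4% of all (0.115% called). With 1 library left out there were 3 (8.57%, beside 13.3% without PD12 replicate 1) to 10 (28.6%, beside 19.8% without CD20 replicate 4). Between D20 and D16 there were 2 (5.71%), beside 19.1% (2.41% called). Leaving out 1 library gave 1 (2.86%, beside 14.1% without CD20 replicate 1) to 6 (17.1%, beside 20.7% without CD20 replicate 4). Between D16 and D12 there were 0, beside 8.13% (0.00% called), and at most 3 with 1 library left out (8.57%, beside 10.8% without PD16 replicate 1). The likelihood ratio test and DESeq2 called 1.83% and 2.52% of all between D20 and D12, 5.38% and 5.96% between D20 and D16, and 0.00% by both between D16 and D12.

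**Figure D5:**
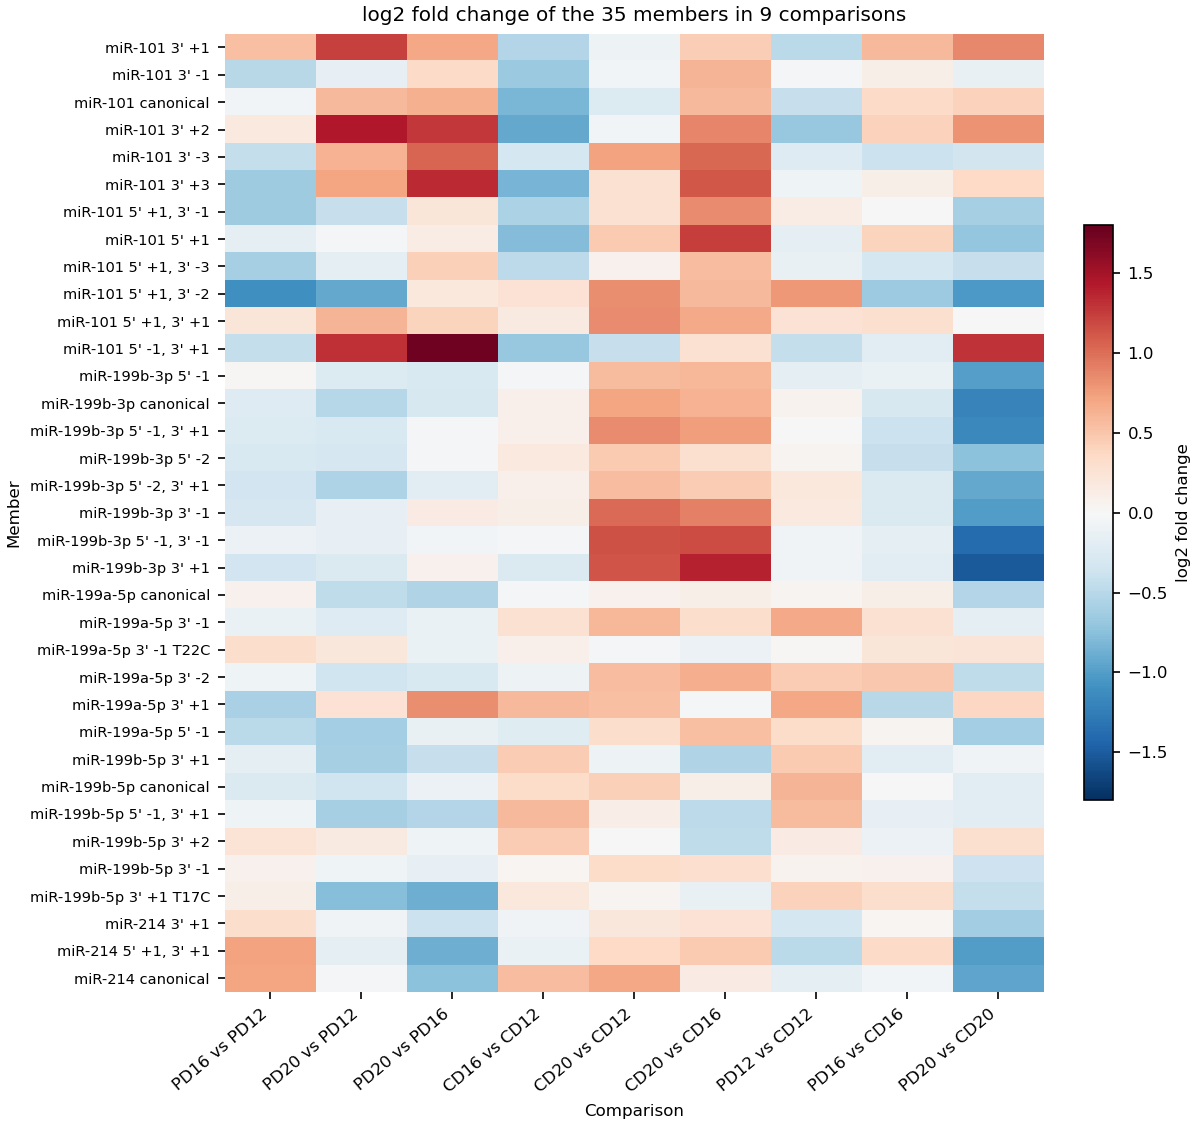
Log2FC (colour, red above 0 and blue below) of each of the 35 members (rows, by family) in the 9 comparisons between groups (columns). On CD20 vs. CD16 29 of 35 members lie above 0, and on PD20 vs. CD20 all 8 forms of the 3p arm of miR-199 lie below it.

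Other miRNAs that the study's text ties to PTGS2 are miR-144, miR-16, miR-320, let-7a, miR-203 and miR-758, with 41 sequences in the list. The study named them partly from these samples, so they are not independent evidence. On PD20 vs. CD20 0 of 41 were called by the F-test and 21 lay at an unadjusted p under 0.05 (28.5% of all sequences did), with 25 positive and a median log2FC of 0.61. The leading form of miR-144 had 1.65 (SE 0.43, adjusted p 0.0519), that of miR-203 1.11 (SE 0.39, adjusted p 0.0884), that of miR-16 −1.87 (SE 0.57, adjusted p 0.0630) and miR-758 −1.02 (SE 0.37, adjusted p 0.0967). On PD20 vs. PD12 14 of 41 were positive (median −0.44), 16 lay under 0.05 in the joint test (18.7% of all did) and 0 were called. Without PD20 replicate 4, 9 of 41 were called on PD20 vs. CD20, where that fit called 13.3% of all.

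Across the 30 libraries, forms of one arm moved together to different degrees. Pearson r of log2(CPM + 1), a description across libraries that share groups and pools, had a median of 0.80 over the 28 pairs of 3p forms of miR-199, 0.71 over U-start and 0.61 over G-start forms of miR-101, 0.52 within miR-199b-5p and 0.34 within miR-199a-5p. Between sums, the 3p arm of miR-199 and miR-214 had the highest r (0.72, Spearman rho 0.72, and 0.66 without the 2 libraries farthest from the median). The sums of U-start and G-start miR-101 had r = 0.45, and 0.23 without 2 libraries. The 3p arm of miR-199 and miR-199b-5p had r = −0.36, which turned to 0.14 without the 2 farthest libraries and so rests on them.

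Among 524 sequences of other miRNAs whose mean reached 10 CPM, the nearest to miR-101 3′ +1 were forms of miR-126 (r = 0.75), miR-182 (0.69) and miR-21 (0.66). Nearest to miR-101 5′ +1, 3′ −1 were miR-542-3p (0.79), miR-16 (0.77) and miR-27a (0.72), which fell to 0.63, 0.60 and 0.47 without the 2 farthest libraries. miR-199b-3p 5′ −1 was most like miR-191 (0.82, and 0.77 without 2), miR-196b (0.79) and miR-126-5p (0.74). For miR-199b-5p 3′ +1 these were miR-148a (0.76, but 0.32 without 2), miR-125b (0.76 and 0.43) and miR-106b-3p (0.71 and 0.35), for canonical miR-199a-5p miR-361-5p (0.60), miR-423 (0.58) and miR-125b (0.50), which were 0.29, 0.28 and 0.20 without 2, and for miR-214 3′ +1 miR-200a, miR-574 (both 0.60) and miR-374a-5p (0.59).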

How the data were processed

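The authors deposited for each library the raw count of every distinct read sequence, made by joining the runs of a library, filtering on quality, trimming adapters, dropping reads that were short or held an unknown base, and collapsing identical reads. Nothing in these counts was normalized. Counts were joined to the 873 sequences the authors annotated by exact match, and their sum, scaled by TMM, was the library size. edgeR 4.0.16 (R 4.3.3) fitted 1 mean per group within pregnancy, within the cycle and for P vs. C on each day, with a prior count of 0.125; SE were derived from the F statistic. Alternatives were the likelihood ratio test, DESeq2 1.42.0, RLE factors, all deposited reads without TMM, a minimum mean of 10 CPM, all deposited sequences of at least 10 reads, 1 fit of 30 libraries, sums by seed, a replicate block and leaving out each library. The fits were tested on simulated data. Ratios were tested by exact permutation over all arrangements of the animals (Python 3.11.15, numpy 2.4.6, pandas 2.3.3). Figures used matplotlib 3.10.9.

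Members and lists were chosen with earlier results of these data known. Members named with values were the most abundant of each form group, those called, that with the smallest p in each comparison and those with a mature pig name, and further forms were named after their values were seen. Each library is 1 animal as labelled, and multiplex pools were not analysed here. Without molecular identifiers the reads are not independent molecules.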

Additional observations from a re-analysis of the deposited data

Results flagged for a closer look

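In the 6 groups of 4 to 6 animals, 120 sets of values, those of the 16 members named by the rule (leading, canonical, called or with the smallest p of a comparison) and of the 4 ratios, were searched for 1 animal far from the rest by the test of Dixon, and 8 were found. Chance gives about 1 in 20 for a set of normally distributed values. The sets share libraries and forms that move together, so they are not independent. CPM and ratios were searched unlogged, whereas the ratios were tested on a log2 scale. On that scale a high value stands less far from the rest, so a ratio flagged here need not stand apart there. For levels these were miR-199b-3p 5′ −1 in CD12 replicate 1 (238 CPM, the nearest animal at 344), miR-214 3′ +1 in CD16 replicate 4 (43.6 CPM, nearest 20.98) and canonical miR-214 in CD20 replicate 2 (11.3 CPM, nearest 5.24).

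The ratio of G-start to U-start miR-101 stood apart in PD16 replicate 1 (0.794, nearest 0.455) and in PD20 replicate 4 (0.770, nearest 0.394). PD20 replicate 4 also stood apart in the ratio of 3p to 5p reads of miR-199 (0.401, nearest 0.213). The ratio of miR-199a-5p to miR-199b-5p stood apart in CD12 replicate 3 (0.680, nearest 0.364) and in CD20 replicate 1 (2.55, nearest 0.914).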

How the results depend on the processing

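The call of miR-101 3′ +2 on PD20 vs. PD12 depended on the setting. Against 1 member called there (0.802% of all sequences), DESeq2 called 2 (5.32% of all). With library size from all deposited reads, with all deposited sequences, with 1 fit of 30 libraries and with sums by seed 0 were called (fits that leave out 1 library: 0 to 1). For these fits and the replicate block below, the shares of all sequences called are not set beside the counts. The loss of the call therefore cannot be told from a fit that calls fewer sequences of any kind. The log2FC of miR-101 3′ +2 stayed between 1.24 and 1.62 over 20 alternatives, with adjusted p from 0.00117 to 0.136. On PD20 vs. CD20 0 members were called, but 3 by the likelihood ratio test, 4 by DESeq2, 5 in 1 fit of 30 libraries and 1 with sums by seed (0 to 5 with 1 library left out; 5 without PD20 replicate 4 or CD20 replicate 4). These settings called 14.2%, 15.2%, 11.2% and 10.7% of all sequences tested, and 13.3% and 11.9% without PD20 replicate 4 or CD20 replicate 4. The share of members was 8.57%, 11.4%, 14.3% and 7.69%, and 14.3% in both last cases. It was below that of all with the likelihood ratio test, DESeq2 and sums by seed. In 1 fit of 30 libraries and without either replicate 4 it was somewhat above, so the direction depended on the setting. Canonical miR-199b-3p there kept a log2FC from −1.43 to −0.99 (adjusted p 0.00652 to 0.254). On PD20 vs. PD16 the likelihood ratio test and DESeq2 called 1 member each (2.86%), beside 2.41% and 1.74% of all. With 1 library left out 0 to 1 were called, the 1 without PD20 replicate 4 (0.687% of all). On CD20 vs. CD16 these tests and the fit of 30 libraries called 1 each (2.86%), beside 6.41%, 8.64% and 7.33% of all. Leaving out 1 library gave 0 to 1 there, the 1 without CD20 replicate 3 (4.12% of all). The other counts stayed at 0. Reversed were miR-199b-5p 3′ +1 on PD20 vs. CD20 (−0.37 to 0.14 with 1 library left out) and miR-214 3′ +1 on PD20 vs. PD12 (−0.23 to 0.17). The cause was not tested. All deposited reads as library size moved the median log2FC of all sequences by −0.23 on PD20 vs. CD20, −0.16 on PD20 vs. PD12 and 0.39 on CD20 vs. CD12. Counts of members at an unadjusted p under 0.05 moved more. With library size from all deposited reads they were 17 (48.6%, beside 20.6% of all sequences) in place of 7 for the change in P vs. C between D12 and D20, 11 (31.4%, beside 22.9%) in place of 5 on CD20 vs. CD16, 14 of 35 (beside 28.1%) in place of 11 on PD20 vs. CD20, and 6 (17.1%, beside 19.5%) in place of 2 for the change between D16 and D20. The single contrast of CD20 vs. CD12 gave 9 (25.7%, beside 19.2%) in place of 3. The joint test gave 7 (20.0%, beside 26.9%) in place of 4 in the cycle and 6 (17.1%, beside 17.8%) in place of 4 in pregnancy. On P vs. C on D12 there were 3 (8.57%, beside 9.97%) in place of 0, and for the change between D12 and D16 1 (2.86%, beside 9.16%) in place of 0. With 1 library left out the ranges were 2 to 10 on CD20 vs. CD16, 6 to 13 on PD20 vs. CD20 and 2 to 8 on PD20 vs. PD16. On P vs. C they were 0 to 1 on D12 and on D16. In the joint tests they were 2 to 6 on PD20 vs. PD12, 3 to 7 on PD16 vs. PD12, 2 to 4 on CD16 vs. CD12 and 1 to 5 on CD20 vs. CD12. The single contrast of CD20 vs. CD12 gave 0 without CD20 replicate 1 or 2, and 4 without CD20 replicate 4. Except where given above, the shares of all sequences in the fits with 1 library left out are not set beside these counts. A movement of the members alone therefore cannot be read from them.

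Replicate numbers do not pair animals: over 70 same-numbered pairs the median r of deviations was −0.04, and 8 of 30 libraries were most like their own number. With the replicate block 0 members were called on PD20 vs. PD12 (miR-101 3′ +2 1.41, adjusted p 0.136), and miR-199b-5p 3′ +1 on PD20 vs. CD20 was 0.33.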
